A study of Mus musculus with 8 samples.

Results

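The genes described here encode the 3 main families of conjugating enzymes of the liver: UDP-glucuronosyltransferases (UGT), glutathione transferases (GST) and sulfotransferases (SULT). They were chosen by symbol, as Ugt1 to Ugt3, the GST classes a, m, t, p, k, o and z, and all Sult genes, with pseudogenes dropped and with at least 10 normalized reads in at least 3 libraries. Of 54 matching symbols, 39 met this rule (11 UGT, 18 GST and 10 SULT), 12 lay below the filter and 3 were pseudogenes. The table held 13704 genes passing the same filter, of 19055 rows in all. The filter bears on low genes. In 10 of the 39 members (6 SULT, 3 UGT and 1 GST) fewer than 3 controls reached 10 normalized reads, so these genes are members through the livers labelled URI(+/D)Hep. Sult3a2 reached 10 in 0 controls, Sult3a1 and Sult2a2 in 1, and Sult2a1 in 2.

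Gene expression was measured by 3′ tag sequencing of total RNA from 8 mouse livers, collected 48 hours after removal of part of the liver from mice 8 to 9 weeks old. All mice, the controls included, received tamoxifen. The 3 controls were wild-type littermates of genotype URI(+/+)Hep, and the 5 livers labelled URI(+/D)Hep carried a deletion of URI in hepatocytes, made with a Cre-ERT2 line driven by serum albumin; as written, the genotype retains a normal copy. The labels number the replicates without saying that each came from a separate animal, so p-values measure the spread between these samples.

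Conjugation joins a foreign or endogenous small molecule to a polar group, so that it can leave the cell and the body. UGTs sit in the endoplasmic reticulum and transfer glucuronic acid from UDP-glucuronic acid to bilirubin, steroids, bile acids and drugs. GSTs are mostly soluble and join glutathione to reactive electrophiles, and SULTs are soluble enzymes that transfer sulfate from PAPS to phenols, steroids, amines and bile acids. In mouse liver several Sult2a and Sult3a genes are known to be expressed more in females, and Gstp genes more in males.

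Some livers stood apart in ways that touch the results below. Uri1 itself was no lower: it had 468, 374 and 310.05 normalized reads in controls 1 to 3 against 328, 398, 437, 354 and 401 in URI(+/D)Hep 1 to 5 (log2 difference 0.01, SE 0.15, limma adjusted p = 0.975). A 3′ tag outside the deleted part would not show the deletion. Where the tags lie relative to the deleted part was not tested, so the groups are called by their labels. Xist, transcribed from an inactive X chromosome, was at 9.59 and 2.95 in controls 1 and 2 and between 1217 and 2357 in the other libraries, while the sum of 4 Y-linked genes was 3.54 in URI(+/D)Hep 1 and between 569 and 1558 elsewhere. In URI(+/D)Hep 2 to 5, as in control 3, Xist appeared alongside Y-linked reads. Little Xist accompanied the Y-linked reads of controls 1 and 2, whereas URI(+/D)Hep 1 showed the opposite. Group and sex composition were therefore partly confounded. Whether a library with both kinds of transcript came from several animals was not tested. Mki67, a marker of dividing cells, was 24.0 in control 1 and 49.5 in URI(+/D)Hep 5, against 268 to 586 in the other 6. URI(+/D)Hep 5 also held 101 genes at 50 or more normalized reads that stayed under 10 in every other library. These made up 0.447% of its reads, and no other library had more than 1 such gene. They included Sis, the intestinal sucrase-isomaltase, at 487 against at most 6.89 elsewhere, and Alpi, intestinal alkaline phosphatase, at 304 against at most 1.87. The summed hepatocyte markers (7 of 7 measured) lay between 25798 and 29802 in all 8 libraries, though within the list Cps1 was at 1586 ± 443 (SD, n = 3) against 3175 ± 422 (SD, n = 5) and Apob at 2344 ± 253 against 3647 ± 683, with groups apart (limma adjusted p = 0.108 and 0.122). All 6 neutrophil markers had negative log2 differences (median -0.80, 0 called), with sums of 525 to 1072 in controls and 293 to 860.2 in URI(+/D)Hep. Sinusoidal endothelial marker sums lay just apart, at 1798 to 2199 against 2206 to 2363. Of these 6 markers 5 had positive log2 differences, with only Stab2 apart, and Stab1 was at -0.44. Cholangiocyte marker sums were 1659, 1068 and 254 in controls 1 to 3 and 1169 in URI(+/D)Hep 5, against 233 to 375 in the other 4. Different markers were high in these libraries. In controls 1 and 2 they were Sox9 (1141 and 631) and Spp1 (458 and 377). In URI(+/D)Hep 5 they were Epcam (525) and Cftr (283), with Sox9 at 152 and Spp1 at 122. The part of these cell types in the results was not tested.

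After adjustment over all genes, 0 of the 39 members were called by limma, where 0.0146% of all genes were called. Without adjustment, limma gave p under 0.05 for 6 members higher in URI(+/D)Hep than in controls (all genes: 8.35%) and 2 lower (all genes: 9.33%). That is 20.5% of the members against 17.7% of all genes, so the members as a whole lay near the background. edgeR on the recovered reads called 0 members, against 0.0219% of all genes. DESeq2 called 4 members, all SULT and all higher, where it called 4.97% of the genes it adjusted, 2.03% as higher. Groups lay apart in 3 members (7.69%, against 13.4% of all genes), of which 2 were higher (6.13% of all genes) and 1 was lower (7.3% of all genes).

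Of the 6 higher members at an unadjusted p under 0.05, 5 were sulfotransferases and 1 was Gstp2. Of those 5, Sult3a1, Sult3a2, Sult2a1 and Sult2a2 passed the filter through the group in which they were higher, so this count and the SULT median are descriptions of genes partly selected for that direction. The median log2 difference was 0.74 over the 10 SULT genes (7 positive), 0.31 over the 11 UGT genes (10 positive) and 0.13 over the 18 GST genes (13 positive). Over all genes tested it was 0.00, with 49.8% positive. A log2 difference above 1, that is more than doubled, was seen in 5 SULT, 2 UGT and 0 GST genes, against 1.90% of all genes. Except for Sult5a1, these genes reached 10 normalized reads in fewer than 3 controls. They are thus members through the group in which they were higher. The UGT median rested on control 1: without that library it was -0.04. The SULT median was 1.24 without control 3, and it was 0.070 among the members whose mean reached 50 normalized reads, where Sult3a1, Sult3a2, Sult2a2 and Sult2a8 drop out. No test compared the families.

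**Figure D1:**
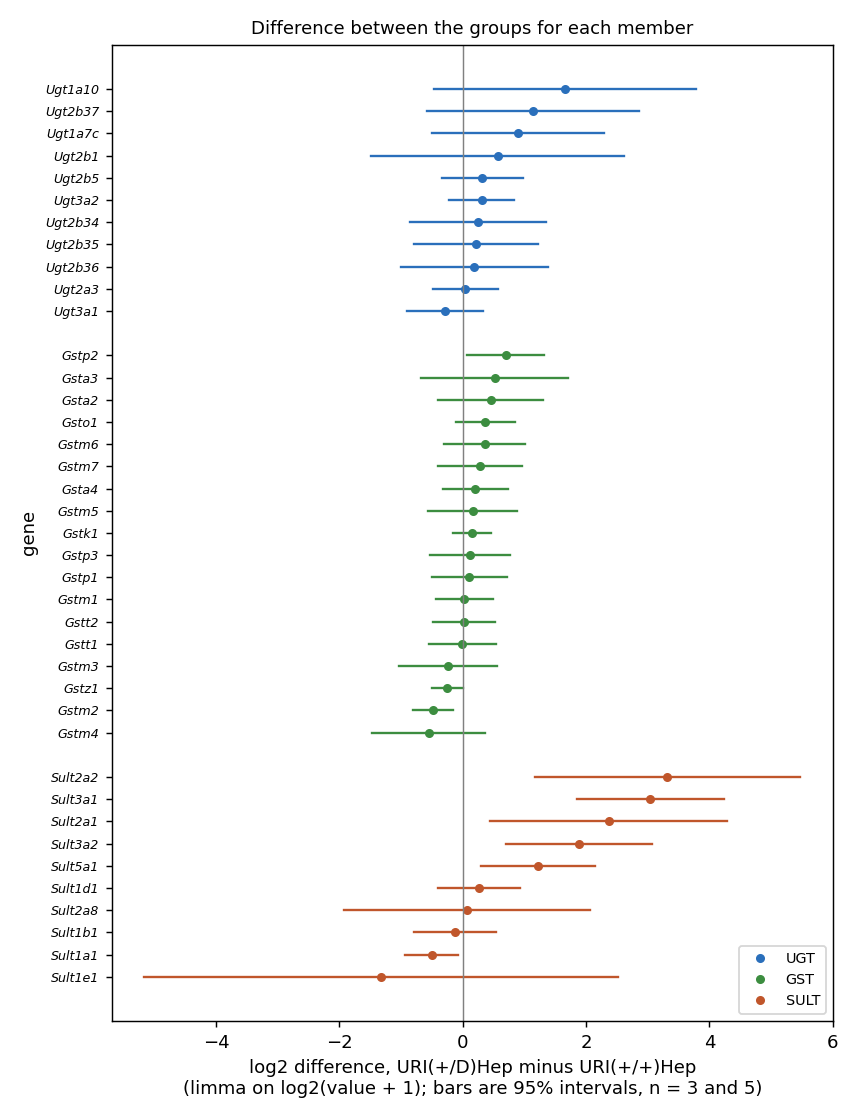
Log2 difference between the groups for each of the 39 members, on the horizontal axis as URI(+/D)Hep minus URI(+/+)Hep on the log2(value + 1) scale, with 95% intervals from limma (n = 3 and 5). The 4 highest points are SULT genes, the GST points all lie between -0.55 and 0.69, and the UGT intervals all cover 0.

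The families also varied to different degrees within a group. The median SD of log2(value + 1) among the 3 controls was 0.90 for UGT, 0.33 for GST and 0.96 for SULT genes, against 0.30 for all genes tested. Among the 5 livers labelled URI(+/D)Hep it was 0.58, 0.37 and 0.77, against 0.24. The GST median SD was thus close to that of all genes in the controls and above it in URI(+/D)Hep, and the UGT and SULT medians were above it in both groups. Together the UGT genes took 0.0390 to 0.123% of the reads of a library, the GST genes 0.135 to 0.199% and the SULT genes 0.0463 to 0.106%.

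**Figure D2:**
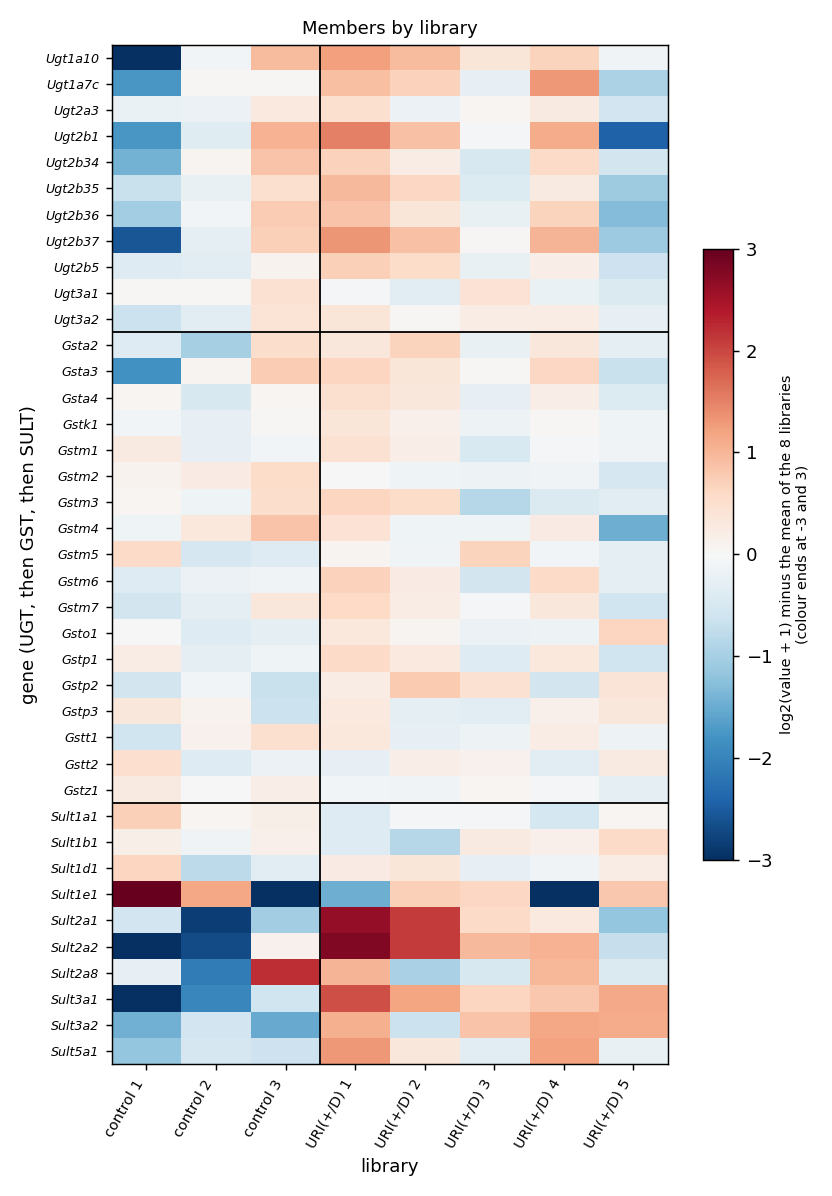
Each row is a member and each column a library. The colour gives log2(value + 1) minus the mean of the 8 libraries for that gene, with colours ending at -3 and 3. Controls are the 3 columns on the left. Red is above the mean and blue below it. In 9 of the 11 UGT rows the 2 lowest libraries are control 1 and URI(+/D)Hep 5. URI(+/D)Hep 1 is highest in 7 UGT, 7 GST and 4 SULT rows, Sult2a1, Sult2a2 and Sult3a1 among them.

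Related genes can share the 3′ ends from which these reads come, so the sequences were compared first. For each member the last 500 bases of its longest coding transcript in GENCODE release M21 (GRCm38) were split into windows of 50 bases, and windows found in transcripts of another gene were counted. Of the 39 members, 25 shared 0 windows and 5 shared more than 50%: Ugt1a10 (100%), Gstp2 (88.9%), Gstp1 (75.2%), Sult2a2 (57.6%) and Gsta2 (51.0%). Ugt1a genes join their own first exon to common later exons. All 9 Ugt1a genes in that annotation had the same last 740 coding bases.
Gstp1 and Gstp2 differed at 8 of their last 600 coding bases and at 0 of the last 60, which are shown with no capitals because no base differs.
Gstp1 and Gstp2: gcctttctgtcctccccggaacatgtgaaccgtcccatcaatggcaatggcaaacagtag
Values of these 5 genes are therefore uncertain as values of single genes. Ugt1a7c shared 0 windows, yet it has the same last 740 coding bases as Ugt1a10. Its value is therefore uncertain too. Sult3a1 shared 0 windows, Sult3a2 and Sult2a1 each 13.1%, and no window of the 6 Ugt2b genes was shared except 3.10% between Ugt2b5 and Ugt2b37.

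Promoter sequence was examined in the 250 bases before the annotated start, from RefSeq (GRCm38.p6), which held windows for 34 of the 39 members. Sult2a1 and Sult2a2 were among those without one. The Sult3 pair is shown because both genes were higher in most livers labelled URI(+/D)Hep, and Gsta3 and Ugt1a10 because both were lowest in control 1. Capitals mark matches, on either strand, to GTTAAT (HNF1 half-site), TGACNNNGC (antioxidant response element core), GCGTG (xenobiotic response element core), CAAAGTCCA (HNF4 site) or TTCNNNGAA (STAT palindrome).
Sult3a1, chr10:33857472-33857721, plus strand: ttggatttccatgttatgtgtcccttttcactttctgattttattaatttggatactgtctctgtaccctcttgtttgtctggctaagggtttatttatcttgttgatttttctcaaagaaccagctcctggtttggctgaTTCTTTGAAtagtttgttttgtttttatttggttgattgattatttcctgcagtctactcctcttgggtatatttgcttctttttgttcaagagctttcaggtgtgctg
Sult3a2, chr10:33782116-33782365, minus strand: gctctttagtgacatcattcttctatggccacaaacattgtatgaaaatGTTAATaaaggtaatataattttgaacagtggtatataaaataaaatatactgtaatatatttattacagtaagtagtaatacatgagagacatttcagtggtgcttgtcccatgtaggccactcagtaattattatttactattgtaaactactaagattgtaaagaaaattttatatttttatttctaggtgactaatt
Gsta3, chr1:21240335-21240584, plus strand: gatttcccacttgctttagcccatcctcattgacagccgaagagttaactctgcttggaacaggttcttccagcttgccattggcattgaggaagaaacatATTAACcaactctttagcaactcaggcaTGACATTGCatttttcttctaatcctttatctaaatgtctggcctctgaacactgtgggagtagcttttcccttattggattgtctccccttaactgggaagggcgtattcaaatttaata
Ugt1a10, chr1:88055161-88055410, plus strand: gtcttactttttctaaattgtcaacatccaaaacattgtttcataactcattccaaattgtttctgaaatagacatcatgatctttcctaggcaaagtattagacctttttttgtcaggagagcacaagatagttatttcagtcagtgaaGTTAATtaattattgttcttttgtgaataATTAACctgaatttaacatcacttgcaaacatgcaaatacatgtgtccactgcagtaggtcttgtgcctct
The HNF1 half-site was in 7 of the 42 windows of members (16.7%), against 6.43% of all 32851 windows in the table. The antioxidant response element core was in 3 windows, all of GST genes (Gsta3, Gstm5 and Gstm7), or 7.14% against 10.2% of all windows. The xenobiotic response element core was in 8 windows (19.0% against 28.2%), the STAT palindrome in 2 (Sult3a1 and Gstm6, 4.76% against 7.02%) and the HNF4 site in 0 (against 0.384%). Some members have several windows, and 2 overlapping windows of Gstm1 hold the same xenobiotic response element core. The motif counts are matches of letters in a short window and do not show binding.

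Sulfotransferases of classes 2 and 3 had the largest differences of the 39 genes. Sult3a1, an amine sulfotransferase, had 2.40, 6.89 and 19.3 normalized reads in controls 1 to 3 against 115, 68.5, 46.4, 52.5 and 66.3 in URI(+/D)Hep 1 to 5. All 5 livers labelled URI(+/D)Hep lay above all 3 controls, with control 3, which has Xist, closest to them. The log2 difference was 3.04 (SE 0.53, 95% interval 1.85 to 4.23, limma adjusted p = 0.108), and the two-sided exact permutation p was 0.0179, the smallest that the 56 splits of 8 libraries allow. Sult3a1 ranked 29th by p among all genes tested. Only 1 control reached the filter value, so Sult3a1 passed the filter through the group in which it was higher. Its p-values, rank and calls therefore describe a gene partly selected for that direction. DESeq2 called it higher (adjusted p = 6.85e-05), as did limma without control 3 (log2 difference 3.70, adjusted p = 0.0247, where 0.248% of all genes were called, 0.0803% as higher). That fit has no control with Xist. With the share of Y-linked reads in the model the log2 difference was 2.33 (limma adjusted p = 0.171).

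Sult3a2, its neighbour on chromosome 10, had only a few reads in the controls. It was at 1.20, 2.95 and 1.07 in controls 1 to 3, near the value of 3 reads (2.65 to 3.60), and at 11.5, 2.78, 9.67, 12.2 and 11.9 in URI(+/D)Hep 1 to 5. URI(+/D)Hep 2 lay with the controls and the other 4 lay above them. The log2 difference of 1.89 (SE 0.52, limma adjusted p = 0.137) was 0.82 with a pseudocount of 8.

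The Sult2a genes, whose enzymes sulfate hydroxysteroids and bile acids, spread widely. Sult2a1 had 22.8, 3.94 and 16.1 normalized reads in controls 1 to 3 against 217, 151, 51.2, 42.2 and 14.8 in URI(+/D)Hep 1 to 5. The first 4 of these lay above every control and URI(+/D)Hep 5 lay among them (log2 difference 2.37, SE 0.85, limma adjusted p = 0.206). Without URI(+/D)Hep 5 it was 2.88 (limma adjusted p = 0.163), and with the share of Y-linked reads in the model 1.70 (limma adjusted p = 0.380). Sult2a2 had 0, 0.985 and 12.9 normalized reads in controls 1 to 3 against 85.7, 53.7, 24.2, 25.3 and 6.92 in URI(+/D)Hep 1 to 5. Again 4 of the 5 lay above every control, with URI(+/D)Hep 1 highest and URI(+/D)Hep 5 lowest. Its log2 difference was 3.32 (SE 0.95, limma adjusted p = 0.145), and 1.78 with a pseudocount of 8. DESeq2 called both genes higher, with adjusted p = 0.0176 for Sult2a1 and 0.0398 for Sult2a2. Both passed the filter through the livers labelled URI(+/D)Hep, so these calls too describe genes partly selected for that direction.

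Sult2a8 did not share this order. It was highest in control 3, at 118, against 20.4 and 4.92 in controls 1 and 2 and 50.4, 12.04, 17.4, 49.6 and 17.8 in URI(+/D)Hep 1 to 5 (log2 difference 0.07, SE 0.88, limma adjusted p = 0.974). The interval of its difference, -1.92 to 2.06, leaves a change of several fold in either direction undetectable in these samples. Sult2a5, below the filter, had 0, 0.985 and 1.07 normalized reads in the controls against 25.6, 25.0, 3.87, 9.37 and 0.989 in URI(+/D)Hep 1 to 5, and Sult2a2 shares most of its 3′ windows with it. URI(+/D)Hep 1, the library with the lowest Y-linked sum, was the highest of 8 for Sult3a1, Sult2a1, Sult2a2 and Sult5a1. It was also the highest for 7 of the 11 UGT and 7 of the 18 GST members, and for 1546 of all 13704 genes tested. Xist was lowest in controls 1 and 2, which were the 2 lowest of 8 for Sult3a1 and Sult2a2. For Sult2a1 the 2 lowest were control 2 and URI(+/D)Hep 5, and for Sult5a1 they were controls 1 and 3. The part of sex composition in these differences was not tested beyond the fits with the covariate and without control 3.

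Sult5a1 was higher in every liver labelled URI(+/D)Hep than in any control. It had 37.2, 59.1 and 53.6 normalized reads in controls 1 to 3 against 207, 106, 65.7, 196 and 71.2 in URI(+/D)Hep 1 to 5, so URI(+/D)Hep 3 and 5 lay just above the controls. The log2 difference was 1.21 (SE 0.41, limma adjusted p = 0.186, two-sided exact permutation p = 0.0536), and DESeq2 called it higher (adjusted p = 0.0398). With the share of Y-linked reads in the model it was 0.83 (limma adjusted p = 0.345).

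**Figure D3:**
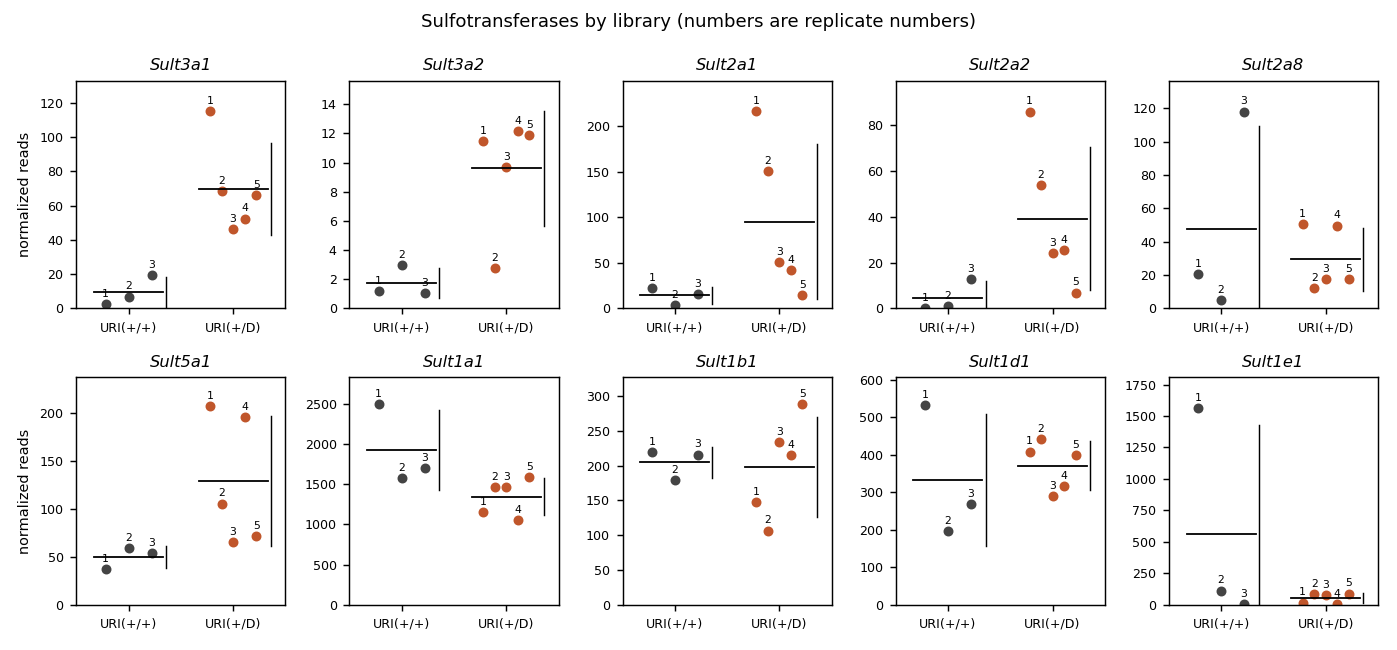
Normalized reads of the 10 SULT members in each library, controls in grey and livers labelled URI(+/D)Hep in orange, with replicate numbers. Horizontal lines are means and vertical lines 1 SD, cut off at 0. The groups are apart for Sult3a1 and Sult5a1, and control 1 stands far above the rest for Sult1e1.

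Class 1 sulfotransferases, which act on phenols, catecholamines, thyroid hormone and estrogens, had 3 negative differences among 4 genes, with 0 called. Sult1a1, the phenol sulfotransferase and the SULT gene with the most reads, had 2498, 1573 and 1701 normalized reads in controls 1 to 3 against 1155, 1467, 1467, 1055 and 1584 in URI(+/D)Hep 1 to 5. The groups overlapped by a single library, URI(+/D)Hep 5, which lay just above control 2. The log2 difference was -0.50 (SE 0.19, limma adjusted p = 0.221), and -0.30 without control 1, the highest library. Sult1a1 alone made up 59.1% of the summed mean reads of the SULT members. The SULT sum was highest in control 1, at 4898, where Sult1a1 and Sult1e1 were both highest, and lay between 1968 and 2549 in the other 7 libraries.

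Sult1e1, estrogen sulfotransferase, varied more between livers than any other member with reads in all 8. Controls 1 to 3 had 1564, 113 and 3.22 normalized reads, and URI(+/D)Hep 1 to 5 had 17.7, 83.3, 77.3, 4.68 and 89.0, a range of 486-fold. Its log2 difference of -1.33 had an SE of 1.70 (limma adjusted p = 0.725). The sign turned without control 1, where the other 7 libraries lay between 3.22 and 113. Sult1d1, which sulfates catecholamines, was also highest in control 1, at 532, against 197 and 269 in controls 2 and 3 and 289.96 to 442 in URI(+/D)Hep (log2 difference 0.26, SE 0.29, limma adjusted p = 0.675). Sult1b1 was highest in URI(+/D)Hep 5, at 288, against 106 to 234 in the other 7 (log2 difference -0.12, SE 0.29, limma adjusted p = 0.860). URI(+/D)Hep 5 is the library with the intestinal transcripts, and their part in this value was not tested.

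The UGT genes varied together from liver to liver, in both groups. In 9 of the 11 UGT members the 2 lowest libraries were control 1 and URI(+/D)Hep 5, against 2 of 18 GST, 0 of 10 SULT and 11.0% of all genes tested. The 6 Ugt2b genes, whose enzymes act on steroids and bile acids, summed to 1236 and 1294 normalized reads in these libraries. In controls 2 and 3 their sum was 2156 and 3619.7, and in URI(+/D)Hep 1 to 4 it was 4155, 3171, 1881 and 3332. The groups thus overlapped throughout. In bulk tissue, fewer cells expressing a gene and less RNA per cell cannot be told apart.

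Livers with few UGT reads were also those with little Mki67. Ordered by Mki67 from 24.0 (control 1) to 586 (URI(+/D)Hep 4), the Ugt2b sum was higher at each step but the last. Summed pericentral markers (7 of 8 measured) were likewise lowest in control 1 and URI(+/D)Hep 5, at 2899 and 4613, against 5119 to 10997 in the other livers. The part of cell cycle stage or of the pericentral zone in the UGT values was not tested. Gsta3, an alpha class GST of the mouse liver, had nearly the same order: controls 1 to 3 had 428, 1599 and 2547 normalized reads, and URI(+/D)Hep 1 to 5 had 2336, 1928, 1544, 2299.7 and 946.

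**Figure D4:**
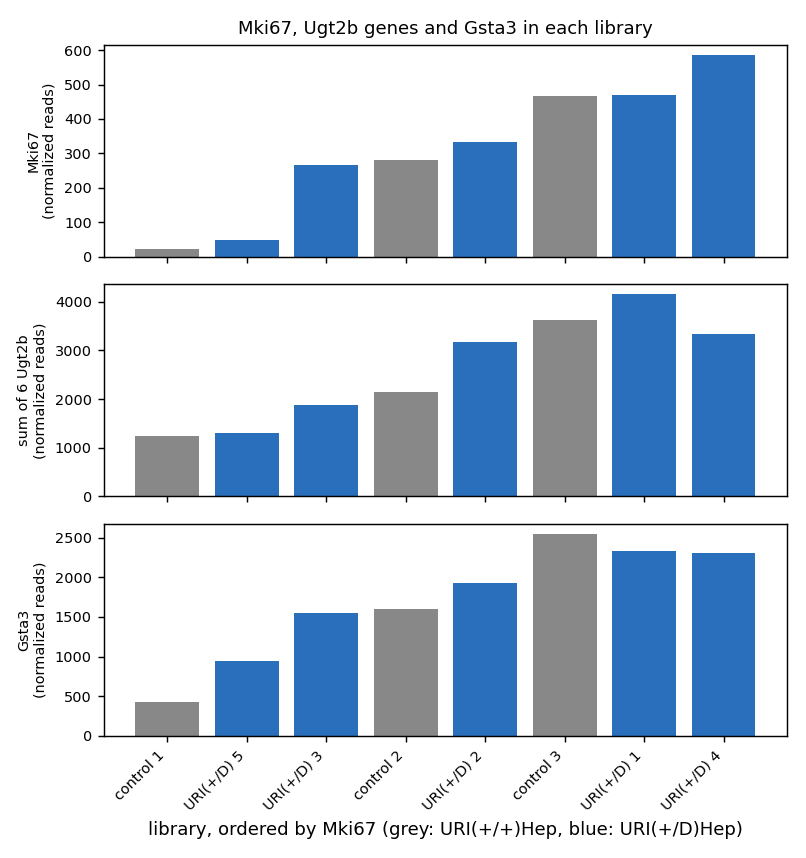
Mki67, the sum of the 6 Ugt2b genes and Gsta3 as normalized reads in each library, with libraries ordered by Mki67 from left to right, controls in grey and livers labelled URI(+/D)Hep in blue. Bars start at 0. All 3 panels are lowest in control 1 and next lowest in URI(+/D)Hep 5, and grey and blue bars are interspersed.

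Ugt2b34, the UGT gene with the most reads, had 275, 779.8 and 1328 normalized reads in controls 1 to 3 against 1178, 860.2, 527, 1089 and 499 in URI(+/D)Hep 1 to 5. Its log2 difference was 0.25 (SE 0.49, limma adjusted p = 0.829), and -0.38 without control 1. Ugt2b1 ranged from 19.8 in URI(+/D)Hep 5 to 317 in URI(+/D)Hep 1, with 32.4, 85.7 and 231 in the controls (log2 difference 0.56, SE 0.91, limma adjusted p = 0.785). Ugt2b37 had 3.60, 21.7 and 44.0 normalized reads in controls 1 to 3 against 67.2, 49.1, 27.1, 54.3 and 11.9 in URI(+/D)Hep 1 to 5 (log2 difference 1.14, SE 0.76, limma adjusted p = 0.466). Each of these genes spanned most of its range within the controls alone. Ugt2b5 was steadier, at 452, 476 and 631 in the controls and 384 to 962 in URI(+/D)Hep (log2 difference 0.32, SE 0.29, limma adjusted p = 0.602). Ugt2b35, Ugt2b36 and Ugt2a3 had log2 differences of 0.21, 0.19 and 0.04.

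The Ugt1a locus encodes the enzymes for bilirubin, phenols and many drugs, and Ugt1a10 and Ugt1a7c are its 2 members here. Ugt1a1, the bilirubin enzyme, was not among the 54 matching symbols, and neither was any other Ugt1a gene, so these have no values here. Ugt1a10 had 1.20, 32.5 and 67.6 normalized reads in controls 1 to 3 against 81.3, 67.6, 44.5, 55.3 and 31.6 in URI(+/D)Hep 1 to 5 (log2 difference 1.66, SE 0.94, limma adjusted p = 0.390). Control 1, at a value of 1 read, was far below every other liver, and without it the log2 difference was 0.18. Ugt1a7c had 2.40, 10.8 and 10.7 normalized reads in the controls against 20.3, 17.6, 8.70, 27.2 and 4.95 in URI(+/D)Hep 1 to 5 (log2 difference 0.90, SE 0.62, limma adjusted p = 0.476). Both genes have the shared coding end, so a value may hold reads of other Ugt1a genes or lack reads that could not be assigned.

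The Ugt3a enzymes use other sugars than glucuronic acid. Ugt3a2 had 175, 219.6 and 366 normalized reads in controls 1 to 3 against 356, 281, 319.9, 320.4 and 231 in URI(+/D)Hep 1 to 5, all within the range of the controls (log2 difference 0.31, SE 0.23, limma adjusted p = 0.527). Ugt3a1 was the UGT gene with a negative difference (-0.28, SE 0.27, limma adjusted p = 0.628), at 16.7 to 22.5 in the controls and 11.9 to 22.2 in URI(+/D)Hep. On chromosome 5 the Ugt2 genes and 3 of the class 1 sulfotransferases are neighbours, with promoter windows from chr5:86906938-86907187 for Ugt2b34 to chr5:87591612-87591861 for Sult1e1 in GRCm38.p6. Control 1 was the lowest library for Ugt2b34, Ugt2b37 and, at the Ugt1a locus, both members, and the highest for Sult1d1 and Sult1e1. Ugt2b1, Ugt2b5, Ugt2b35, Ugt2b36 and Ugt2a3 were instead lowest in URI(+/D)Hep 5, where Sult1b1 was highest. Over all 13704 genes tested, control 1 was the lowest library for 3464 and the highest for 3716.

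GST genes had the smallest spread of differences of the 3 families. None of the 18 differences was above 1 or below -1 on the log2 scale, and the range was -0.55 (Gstm4) to 0.69 (Gstp2). Among the mu class, Gstm2 was lower in every liver labelled URI(+/D)Hep than in any control. It had 319, 349.5 and 432 normalized reads in controls 1 to 3 against 293, 268, 266, 273 and 209 in URI(+/D)Hep 1 to 5. The log2 difference was -0.48 (SE 0.14, 95% interval -0.81 to -0.16, limma adjusted p = 0.151), with a two-sided exact permutation p of 0.0179, the smallest possible here. It stayed between -0.62 and -0.36 over 21 other settings without being called in any.

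The other mu class genes did not share this pattern. Gstm1 had 730.4, 514 and 571 normalized reads in controls 1 to 3 against 833, 694, 443, 588 and 559.8 in URI(+/D)Hep 1 to 5, a log2 difference of 0.03 whose interval of -0.43 to 0.49 corresponds to 0.74- to 1.40-fold (limma adjusted p = 0.959). Gstm4 had 101, 137 and 201 normalized reads in the controls against 149, 101, 101, 130.2 and 39.6 in URI(+/D)Hep 1 to 5, with URI(+/D)Hep 5 far below the rest (log2 difference -0.55, SE 0.41, limma adjusted p = 0.510, and -0.24 without URI(+/D)Hep 5). Gstm3 had a log2 difference of -0.24, and Gstm5, Gstm6 and Gstm7 had 0.16, 0.35 and 0.28.

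The pi class had 3 positive differences among 3 genes. Gstp2 had 149.9, 209 and 139 normalized reads in controls 1 to 3 against 256, 383, 303, 151 and 291 in URI(+/D)Hep 1 to 5. All but URI(+/D)Hep 4 lay above every control (log2 difference 0.69, SE 0.28, limma adjusted p = 0.244, two-sided exact permutation p = 0.0893). Gstp1 had 344, 245 and 269 normalized reads in the controls against 441, 366, 226, 368 and 197 in URI(+/D)Hep 1 to 5, with the groups overlapping throughout (log2 difference 0.11, SE 0.27, limma adjusted p = 0.871). Because most of their 3′ ends are identical, the split of reads between these genes is uncertain. Gstp3 had a log2 difference of 0.11.

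**Figure D5:**
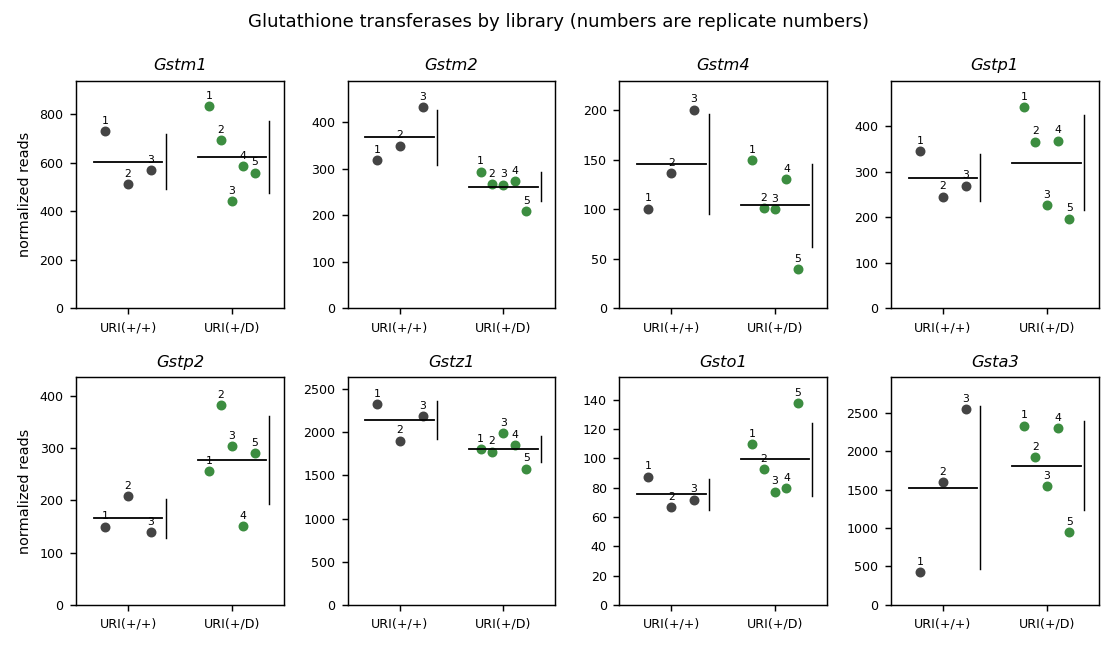
Normalized reads of 8 GST members in each library, controls in grey and livers labelled URI(+/D)Hep in green, with replicate numbers. Horizontal lines are means and vertical lines 1 SD. Gstm2 is the member shown whose groups do not overlap, and Gsta3 spans its whole range within the controls.

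Gstz1, the maleylacetoacetate isomerase of tyrosine breakdown, had the most reads of the GST genes. It had 2328, 1903 and 2189 normalized reads in controls 1 to 3 against 1806, 1775, 1993, 1855 and 1577 in URI(+/D)Hep 1 to 5, with 4 of the 5 below every control (log2 difference -0.25, SE 0.11, limma adjusted p = 0.284, two-sided exact permutation p = 0.0536). Gsto1, an omega class reductase, had 87.5, 67.0 and 71.9 normalized reads in the controls against 109.6, 92.6, 77.3, 79.6 and 137 in URI(+/D)Hep 1 to 5. Its highest library was URI(+/D)Hep 5, and without that library the log2 difference of 0.37 (SE 0.21, limma adjusted p = 0.394) was 0.24. Among the alpha class, Gsta2 had 15.6, 9.85 and 30.04 normalized reads in the controls against 16.8 to 33.3 in URI(+/D)Hep (log2 difference 0.45, SE 0.38, limma adjusted p = 0.566). Gsta3 and Gsta4, which detoxifies the lipid peroxidation product hydroxynonenal, had log2 differences of 0.52 and 0.20. Gstk1, Gstt1 and Gstt2 had 0.15, -0.01 and 0.02, with 95% intervals from -0.55 to 0.53.

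The genes that supply and carry the reactions were read from 8 lists covering 91 measured genes. In limma 0 of them were called, with 6 higher and 5 lower at an unadjusted p under 0.05, beside 17.7% of all genes. edgeR called 0. DESeq2 called 2 higher and 3 lower, near its share of 4.97% over all genes. Supply of UDP-glucuronic acid had 3 of 6 genes positive (median -0.02). Ugp2, which makes UDP-glucose, was at 393 ± 64.1 (SD, n = 3) against 522 ± 91.4 (SD, n = 5) normalized reads. Slc35b1, of the nucleotide sugar carrier family, was at 1695 ± 113 against 1118 ± 203 and was called lower by DESeq2 (adjusted p = 0.0217, limma adjusted p = 0.120). Supply of PAPS had 3 of 7 positive, with a median of -0.04. Its examples were Bpnt2, a phosphatase of the sulfation by-product, at 1575 ± 101 against 1336 ± 42.1, and Slc35b3, a PAPS carrier, at 265 ± 81.3 against 198 ± 25.3.

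Glutathione synthesis and recycling had 9 of 13 genes positive, with a median of 0.06. Gclm, a subunit of the first enzyme of glutathione synthesis, was at 589 ± 103 against 861 ± 221, and Chac2, which degrades glutathione, at 84.9 ± 52.4 against 127 ± 9.24. Glutathione transferases outside the 3 families had 2 of 7 positive (median -0.20). Of these Eef1g, a translation elongation factor subunit with a GST-like domain, was at 892 ± 18.9 against 651 ± 51.9 and was called lower by DESeq2 (adjusted p = 0.00175, limma adjusted p = 0.115), and Mgst3 was at 19.9 ± 8.55 against 36.8 ± 7.76. Other conjugating enzymes had 7 of 17 positive (median -0.03), and Nat8, an acetyltransferase, was at 32.4 ± 6.66 against 14.5 ± 11.0. Deconjugating enzymes had 4 of 10 positive (median -0.07), with the sulfatases Arsa at 137 ± 26.0 against 104 ± 31.5 and Arsg at 586 ± 290.5 against 401 ± 55.3.

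Carriers that move conjugates and bile acids across the hepatocyte membrane had 12 of 14 genes positive, with a median log2 difference of 0.38, against 49.8% positive over all genes. Their summed reads were 5408, 8916 and 12902 in controls 1 to 3 and between 8360 and 14511 in URI(+/D)Hep. The groups overlapped in this sum, with control 1 lowest and URI(+/D)Hep 5 next lowest, as for the Ugt2b sum. Abcc2, which exports conjugates into bile, was at 2191, 2572 and 3721 in controls 1 to 3 and between 3201 and 4582 in URI(+/D)Hep (log2 difference 0.49, SE 0.19, limma adjusted p = 0.236). Abcc6 was at 78.0, 176 and 326 in the controls and between 226 and 415 in URI(+/D)Hep (log2 difference 0.90, SE 0.39, limma adjusted p = 0.280). For both genes control 3 lay within the other group. Regulators of the conjugating enzymes had 9 of 17 positive (median 0.01). Cux2, a transcription factor of female mouse liver, was at 193, 103 and 203 in controls 1 to 3 and between 268 and 518 in URI(+/D)Hep, apart from the controls (log2 difference 1.20, SE 0.28, limma adjusted p = 0.115, DESeq2 adjusted p = 0.00522). Rxra, the partner of several drug-sensing nuclear receptors, was at 1602 ± 170 against 1219 ± 95.6, also apart (log2 difference -0.39, SE 0.11, limma adjusted p = 0.136, DESeq2 adjusted p = 0.0303, and 0.0766 without URI(+/D)Hep 5).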

How the data were processed

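Per the submitters' processing notes, the tools were bcl2fastq, featureCounts and DESeq2 and the build GRCm39, listed without their roles. The aligner, the annotation and the use of the 6 nt molecular identifiers were not stated there. The authors deposited a single table of normalized signal which, judged from its values, is gene counts scaled by size factors. Within a library, all values (100%) were whole multiples of the lowest nonzero one (tolerance 1e-06), which gave 3838674 to 4800694 reads per library. The value of 3 reads, 2.65 to 3.60, covers counting error only.

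Limma 3.58.1 (R 4.3.3) with a trend was fitted to log2(value + 1), which understates changes of low genes, with Benjamini-Hochberg adjustment over the 13704 genes at 10 or more in at least 3 libraries and a threshold of 0.05. edgeR 4.0.16 and DESeq2 1.42.0 were run on the recovered reads. Exact permutation tests used all 56 splits. Named genes were the 5 members per family with the smallest p, the most abundant member, 12 chosen by name, and 2 per list, with extremes given singly. A gene and a sequence that would have been named are not reported here. Members and lists were chosen with earlier results of these data known, and the intestinal genes after seeing their values.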

Additional observations from a re-analysis of the deposited data

Results flagged for a closer look

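Among 45 matching rows that reached 10 normalized reads in a liver labelled URI(+/D)Hep, 2 had a library far from the other 4 of that group by Dixon's criterion on the log2(value + 1) scale. Chance flags about 1 in 20 groups. Sult6b2, a sulfotransferase below the filter, was at 1259 in URI(+/D)Hep 5 and at most 2.95 in the other 7 libraries. It had the highest value of the 101 genes high in that library alone. Sult3a2 was at 2.78 in URI(+/D)Hep 2, against 9.67 to 12.2 in the other 4.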

How the results depend on the processing

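Limma called 2 genes in all. It called 4 where the mean reached 50, 0 without the trend, 0 with the share of Y-linked reads in the model, 1 with control 1 and URI(+/D)Hep 5 both left out, and 0 to 34 when leaving out 1 library, the 34 without control 3. On recovered reads edgeR called 3 and DESeq2 573. On the 7 libraries other than URI(+/D)Hep 5, a setting chosen after seeing the data, edgeR called 0 and DESeq2 378. SULT members called were 4 with DESeq2 on 8 or 7 libraries and 0 to 1 when leaving out 1 library. The SULT median log2 difference was 0.070 where the mean reached 50 and 0.61 to 1.24 when leaving out 1 library.

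Signs turned in at least 1 setting for 18 of the 39 members, most often for Sult2a8 (11 settings) and Gstt2 (9), and the cause was not tested. Of these, 4 were named by rule. With the share of Y-linked reads in the model, log2 differences were -0.34 for Ugt2b34, -0.38 for Ugt2b1, -0.11 for Gstm1 and -0.064 for Gstp1. Ugt2b34 was at -0.22 with control 1 and URI(+/D)Hep 5 both left out. When leaving out 1 library, ranges were -0.38 to 0.75 for Ugt2b34, -0.13 to 1.27 for Ugt2b1, -0.085 to 0.17 for Gstm1 and -0.025 to 0.26 for Gstp1. With the Y-linked share the UGT, GST and SULT medians were -0.21, -0.02 and 0.69. The other 21 members kept their sign in every setting in which they were fitted, 20 or 21 each.

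Same-numbered libraries deviated with correlations of -0.40, -0.04 and -0.27. The labels do not say whether the numbers pair libraries. These correlations cannot decide it, as each rests on a single library per group. With the replicate block, 0 genes were called and the UGT, GST and SULT medians were 0.53, 0.22 and 0.74. Members near 3 reads, such as Sult3a2 in the controls, are limited by depth.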
